A study of Mus musculus with 6 samples.

Results

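Complement and coagulation factors were followed in mouse liver as a set of 43 genes, chosen by name: the starters, central and terminal components and regulators of complement, and the factors of clotting and of clot breakdown. Probes were taken as belonging to a member when their accession mapped to its symbol. By their known main source, 34 of the 43 members are made by hepatocytes, 3 are the C1q chains made by macrophages, and 6 (F3, F8, Cfd, Plat, Plau and Plaur) are made by other cells. The set was measured among 18338 named genes on 6 single-colour arrays of total liver RNA, 1 array per sample. All mice were of BL6 background and carried the allele Fah_del_tm1Mgo, a deletion of the gene for fumarylacetoacetate hydrolase, which completes the breakdown of tyrosine. FCR mice carried in addition Rag2_del_tm1Fwa and a deletion of the common gamma chain (tm1Wjl), so that they lack mature B, T and NK cells. NTBC, a drug that blocks tyrosine breakdown upstream of Fah, was in the drinking water at 7.5 µg/ml. Healthy Fah liver (n = 1) and normal FCR liver (n = 1) came from mice kept on it without a break, the regimen labelled 100%. Fah tumour (n = 2) and inflamed FCR liver (n = 2) came from mice taken through 2 courses of withdrawal, with 1 sample of each labelled off and the other 2xoff/on. The labels do not settle in which phase each liver was collected, give no age, and do not say whether the samples of a group are separate animals. The p-values below therefore measure the spread between these samples only. Every withdrawal sample was tumour or inflamed liver and neither continuous sample was, so withdrawal and the state of the tissue cannot be told apart.

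Complement is a cascade of plasma proteins that marks microbes and dying cells. The classical route starts with C1q, the lectin route with mannose-binding lectins, and the alternative route with factors B and D; all cleave C3, and the terminal components then assemble into a pore in the target membrane. Coagulation is a second cascade, in which vitamin K dependent proteases end in thrombin and thrombin turns fibrinogen into fibrin, which plasmin dissolves again. The hepatocyte is the main source of nearly all these proteins, so that plasma levels of clotting factors are used as a measure of liver function. C1q is an exception, since liver macrophages make most of it, and so are the members made by other cells.

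Levels are log2 processed signals from which the 75th percentile of the same array was subtracted, so that a level of 0 lies at that percentile and 1 unit is a doubling of signal. A level compares the same probe between arrays and not one gene with another. The percentile itself differed between arrays. It was 363.1 in healthy Fah and 373.5 in normal FCR liver. In the off and 2xoff/on samples it was 810.6 and 889.5 for the tumours, and 363.5 and 721.9 for inflamed FCR liver. Falls and rises below are relative to that percentile, and unscaled signals were not tested. For each gene the samples are given in the order healthy Fah, normal FCR, the tumours, then inflamed FCR liver, with the off sample first in each pair. A probe measured 42 of the 43 members on all 6 arrays, 40 of them well above background on every array. Plau was well above background on 3 arrays and Cfd on 5. F8, the cofactor of factor IX, was not tested because its spot was marked as an outlier on 1 tumour array, that of 2xoff/on; on the other 5 arrays it lay between -1.22 and 0.06. Slide 1 held the 4 arrays of the 100% and off regimens and slide 2 both 2xoff/on arrays. Within tumour and within inflamed liver regimen and slide therefore cannot be told apart. In the fit of 4 group means a gene's own spread comes from these pairs, so the standard errors include any difference of regimen and slide. Between 60.5% and 74.5% of the 43379 spots per array were well above background. The labels of the strains were checked with Il2rg, the common gamma chain, whose probe passed background on all 3 arrays of Fah mice (-3.40 to -1.94) and on 0 of 3 of FCR mice (-7.74 to -6.70). Rag2 was well above background on 0 of 6 arrays, Fah mice included, and Fah on all 6 (-2.85 to -0.97). Where their probes lie relative to the deleted stretches is not given, so these 2 genes check nothing. A single array stood apart in the gap between probes of the same gene, and whether RNA quality played a part was not tested. The second probe of a gene lay below its brightest probe by a median of 2.21 on the inflamed FCR off array (a gap of -2.21) and by -1.47 to -1.73 on the other 5. For 54.7% of 4327 genes with a further probe, and for 9 of 13 further probes of members, that gap was widest on this array.

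After NTBC withdrawal, hepatocyte-made factors were lower, relative to the array's 75th percentile, than on continuous NTBC. Higher were the C1q chains, of which C1qa and C1qb passed, tissue plasminogen activator (Plat) and the urokinase receptor (Plaur). Of 42 members tested with limma over both genotypes (4 arrays against 2), 19 fell, where 3.29% of all 15377 genes fell. In the same test 4 rose, where 8.66% of all genes rose (12.0% either way). The share of members that rose was thus near that of all genes. At an unadjusted p under 0.05 there were 34 members, against 26.0% of all genes. The median log2 difference was -1.40 over the members and -0.02 over all genes tested. Among the 34 hepatocyte-made members 18 fell and 0 rose, with a median of -1.54 and values from -4.35 to -0.21. In 31 of these 34 the 4 withdrawal arrays lay wholly below both continuous arrays, as did those of 20.9% of all genes. The 3 C1q chains lay between 1.69 and 1.93. Across the hepatocyte-made members the direction depended on the scaling for a few: with quantile normalization 31 of 34 were below 0 (Mbl2, Cpb2 and C3 were not), with a median of -1.02, and with the authors' values 32 of 34 (not Mbl2 and Cpb2). In those scalings 6 members fell and 4 rose. Without the 2xoff/on tumour array (Fah tumour replicate 2) 10 members fell (2.22% of all genes) and 2 rose (7.10%), and 11 of the 23 calls were kept. Without either inflamed FCR array all 23 were kept. Within slide 1 alone, 33 of the 34 hepatocyte-made members were lower in the off tumour than in healthy Fah liver (median -1.50). On that slide 32 of 34 were lower in the off inflamed than in normal FCR liver, with a median of -1.69. These differences also depend on the scaling, since the 75th percentile was 810.6 in the off tumour and 363.1 in healthy Fah liver. For off inflamed and normal FCR liver it was 363.5 and 373.5. On slide 2 it was 889.5 in the 2xoff/on tumour and 721.9 in the 2xoff/on inflamed sample. The part of these higher percentiles in the falls was not tested. With slide as a block 23 members fell (7.37% of all genes) and 6 rose (15.2%). C6, C8a, C8b, C8g, Mbl1, F7, Plat and Plaur lost their call in 0 of 13 alternative settings.

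**Figure D1:**
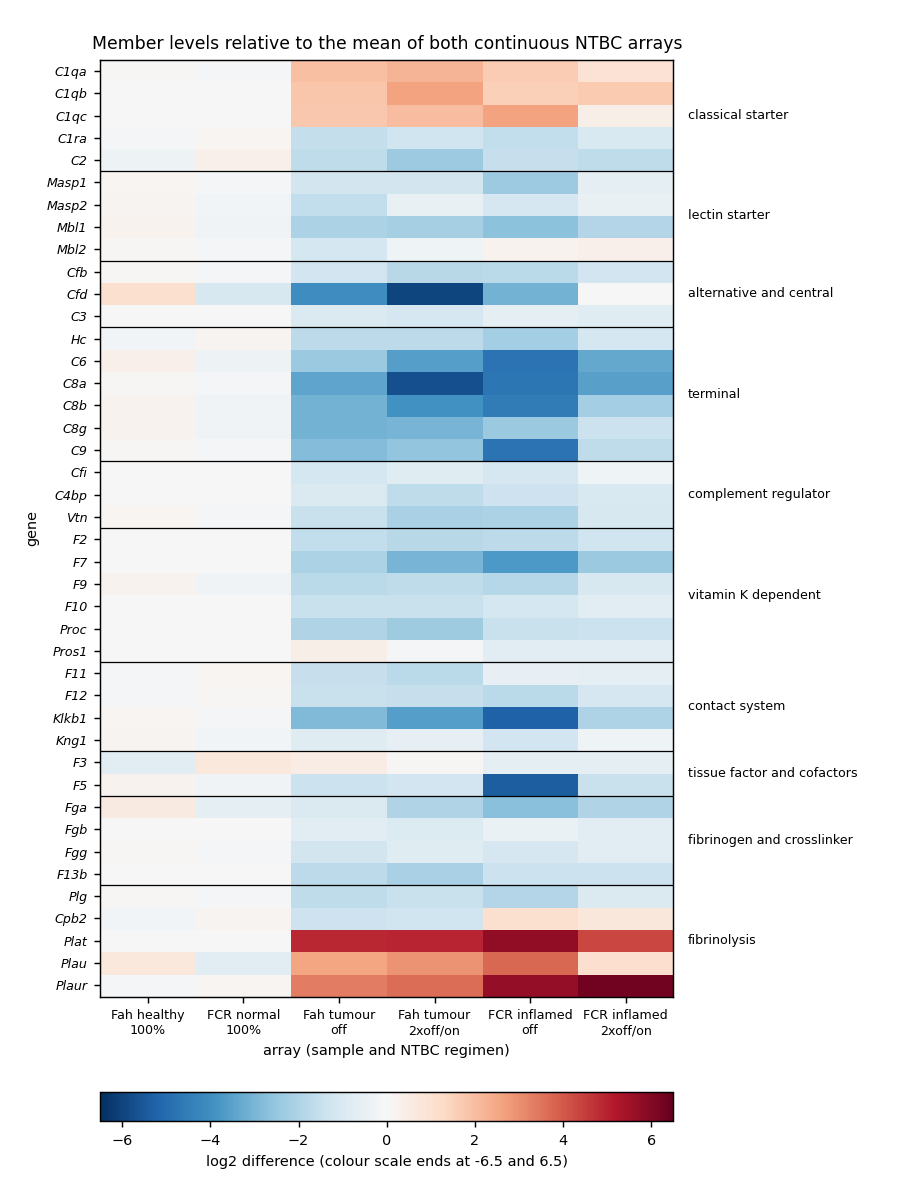
Log2 level of each of the 42 measured members (rows, grouped by role) on the 6 arrays (columns), minus the mean of its 2 continuous NTBC arrays; blue is lower and red is higher. The 4 withdrawal arrays are blue for nearly all hepatocyte-made members, with the terminal complement genes C6 and C8a among the darkest, as is Cfd in the tumours, and red for the 3 C1q chains, Plat and Plaur.

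The 3 genes for C1q, whose chains together form the molecule that recognises antibody and cell debris, were higher on every withdrawal array than on either continuous array. The promoters of C1qb and C1qc are shown because these chains went against the hepatocyte-made members; C1qa had no entry. The sequences are RefSeq's, on GRCm38.p6, from 250 bases before to 50 after the start of the gene. C1qb lies on the minus strand at chr4:136886151-136886450 and C1qc on the minus strand at chr4:136892865-136893164. Capitals mark the letters GAGGAA on either strand, the core bound by PU.1, a factor of macrophages and other myeloid cells. These letters were in 28.3% of 32851 promoters of this length, so a match describes the window and is no site shown to be used. They were in 6 of the 33 members with an entry: C1qb, C1qc, C1ra, F7, Fgb and Plaur. Of these 6, 3 are hepatocyte-made.

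C1qb: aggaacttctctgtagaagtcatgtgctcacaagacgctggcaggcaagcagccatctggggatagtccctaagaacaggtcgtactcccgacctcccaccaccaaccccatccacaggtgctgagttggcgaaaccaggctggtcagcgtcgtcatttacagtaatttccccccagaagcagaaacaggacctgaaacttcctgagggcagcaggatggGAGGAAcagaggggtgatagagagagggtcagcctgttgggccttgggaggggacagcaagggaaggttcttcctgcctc
C1qc: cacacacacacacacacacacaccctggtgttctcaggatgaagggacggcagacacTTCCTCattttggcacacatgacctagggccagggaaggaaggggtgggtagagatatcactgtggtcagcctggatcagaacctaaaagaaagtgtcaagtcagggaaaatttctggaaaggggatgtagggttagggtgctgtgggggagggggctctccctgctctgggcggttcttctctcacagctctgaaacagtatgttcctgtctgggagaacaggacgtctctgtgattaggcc

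C1qa was at 1.34 and 1.20 on continuous NTBC, at 3.25 and 3.50 in the tumours, and at 2.94 and 2.19 in inflamed FCR liver. C1qb was at 0.70 and 0.68 on continuous NTBC, at 2.51 and 3.33 in the tumours, and at 2.26 and 2.38 in inflamed FCR liver. C1qc was at 2.34 and 2.26, at 4.06 and 4.30 in the tumours, and at 4.93 and 2.67 in inflamed FCR liver. In words, the continuous samples of both strains were nearly alike for each chain, and the groups did not overlap for any of the 3 chains, where 20.1% of all genes had such higher groups. C1qa rose by 1.70 ± 0.43 (log2, standard error of the fit; adjusted p = 0.0347) and C1qb by 1.93 ± 0.43 (adjusted p = 0.0229). C1qc, at 1.69 ± 0.61, did not pass (adjusted p = 0.115), and its 2 inflamed FCR arrays were 2.26 apart. Without the 2xoff/on tumour array, 0 of the 3 chains passed. Markers of macrophages and Kupffer cells were measured for 9 of 10 listed genes, and 2 of the 9 rose. Their summed level, in units of the array's 75th percentile, was 33.4 and 43.5 on continuous NTBC. It was 80.2 and 156 for the tumours, against 398 and 43.3 for inflamed FCR liver. The 2xoff/on inflamed sample, whose C1q levels were above both continuous samples, had a macrophage marker sum within their range. On its array that sum was mostly Cd5l (4.49) and Marco (3.38), and single markers lay on both sides of the continuous samples. Lyz2 was at 0.69 there, against -2.68 and -2.45 on continuous NTBC, and Clec4f at 1.37, against 3.16 and 2.61. On that array 8 of the 9 were well above background, and the level of Timd4, a receptor of resident Kupffer cells, was at -5.88 and not well above background. All 5 markers of lipid-associated macrophages rose; their sum was 15.0 and 13.5 on continuous NTBC, 183 and 97.7 for the tumours, and 165 and 53.7 for inflamed FCR liver. The part of cell numbers in the C1q result was not tested, and in whole liver RNA more cells of a type and more RNA per cell cannot be told apart.

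**Figure D2:**
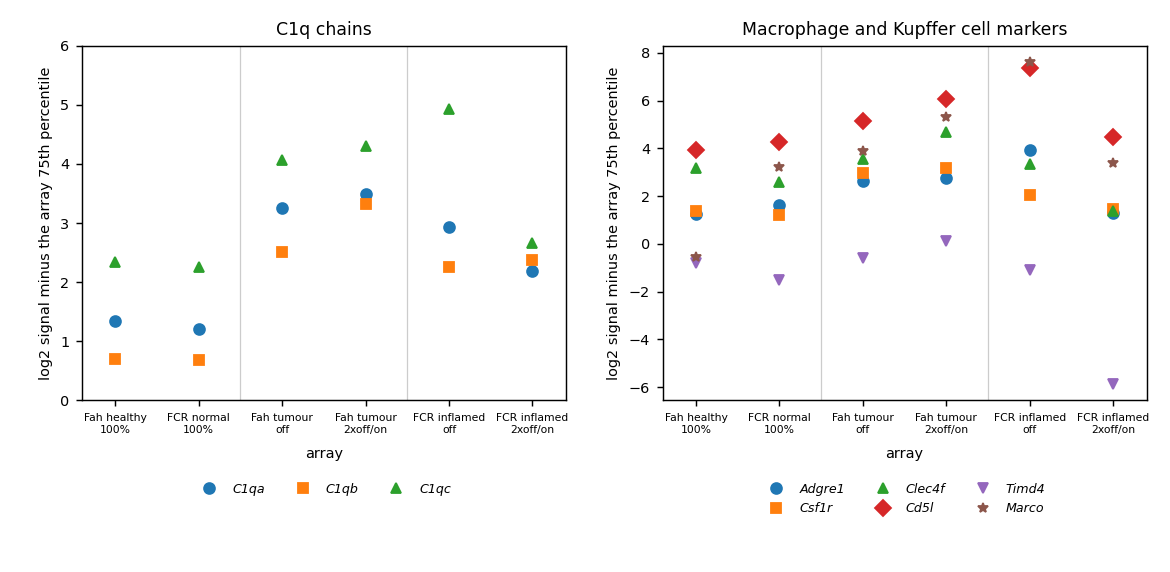
Log2 level of the 3 C1q chains (left) and of 6 macrophage and Kupffer cell markers (right) on each of the 6 arrays, 1 point per gene and array. The C1q chains are lowest on both continuous arrays, while Clec4f and Timd4 are lowest on the 2xoff/on inflamed FCR array.

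The terminal components, which build the membrane pore, showed the lowest median of any role: 6 of 6 members fell, with a median of -3.20. C8a and C8b encode the alpha and beta chains of C8, the component that first enters the membrane, and their promoters are shown because they fell together with most of the hepatocyte-made members. C8a lies on the minus strand at chr4:104876349-104876648 and C8b on the plus strand at chr4:104766067-104766366 (GRCm38.p6). Capitals mark the half-site of HNF1, a hepatocyte transcription factor, searched as GTTAAT on both strands. These letters were found in 10 of the 33 members that had a promoter entry, all of them among the 27 hepatocyte-made members with an entry, and in 7.1% of 32851 promoters. The 10 members were C1ra, C4bp, C8a, C8b, F13b, F2, Fga, Fgb, Hc and Vtn. C1qa, C2, Cfb, Cfi, Kng1, Masp1, Plat, Plau, Plg and Proc had no entry.

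C8a: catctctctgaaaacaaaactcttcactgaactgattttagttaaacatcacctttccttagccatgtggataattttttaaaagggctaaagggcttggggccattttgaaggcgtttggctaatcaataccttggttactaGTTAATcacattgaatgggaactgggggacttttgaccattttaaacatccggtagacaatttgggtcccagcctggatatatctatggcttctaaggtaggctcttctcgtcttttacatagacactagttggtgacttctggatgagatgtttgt
C8b: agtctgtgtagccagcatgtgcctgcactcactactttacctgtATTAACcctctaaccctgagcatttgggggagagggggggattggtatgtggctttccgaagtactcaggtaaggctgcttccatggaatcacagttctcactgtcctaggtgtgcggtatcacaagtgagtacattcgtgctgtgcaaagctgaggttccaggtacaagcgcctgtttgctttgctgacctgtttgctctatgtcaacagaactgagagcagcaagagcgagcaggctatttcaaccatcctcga

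C8a was at 6.02 and 5.84 on continuous NTBC, at 2.51 and 0.20 in the tumours, and at 1.22 and 2.39 in inflamed FCR liver. It fell by 4.35 ± 0.66 (adjusted p = 0.00461). C6, which extends the pore complex after C5b, was at 4.42 and 3.76, at 1.67 and 0.52 in the tumours, and at -0.73 and 0.75 in inflamed FCR liver. For both genes every withdrawal array lay more than 2 units below both continuous arrays, and the order of the off and 2xoff/on samples differed between the strains. C6 fell by 3.54 ± 0.56 (adjusted p = 0.00541). C8b was at 4.88 and 4.45, at 1.57 and 0.75 in the tumours, and at 0.13 and 2.44 in inflamed FCR liver, a fall of 3.44 ± 0.64 (adjusted p = 0.0107). C8g, the gamma chain of C8, was at 6.69 and 6.28, at 3.41 and 3.46 in the tumours, and at 4.09 and 5.07 in inflamed FCR liver. It fell by 2.48 ± 0.43 (adjusted p = 0.00788), and its 2 tumour arrays lay below both inflamed arrays. C9, which polymerises into the wall of the pore, was at 3.62 and 3.50, at 0.72 and 1.01 in the tumours, and at -1.24 and 1.91 in inflamed FCR liver. It fell by 2.96 ± 0.77 (adjusted p = 0.0392), with its lowest value on the off inflamed array that stood apart in probe gaps. Hc, which encodes C5, was at 7.86 and 8.21, at 6.34 and 6.31 in the tumours, and at 5.84 and 6.87 in inflamed FCR liver, a fall of 1.70 ± 0.42 (adjusted p = 0.034). Without the off inflamed array the median of the 6 was -2.54, without the 2xoff/on inflamed array -3.82, and 6 of 6 fell in both. Of the 6, 5 fell without the 2xoff/on tumour array, and with quantile normalization, the authors' values, no filter on dim probes, every probe on its own or no variance trend 4 of 6 did; Hc lost its call in 6 and C9 in 5 of 13 alternatives.

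Among the starters other than C1q, C2 and Mbl1 fell. C2, the protease of the classical and lectin C3 convertase, was at 5.84 and 6.52 on continuous NTBC, at 4.53 and 3.83 in the tumours, and at 4.66 and 4.55 in inflamed FCR liver. It fell by 1.79 ± 0.40 (adjusted p = 0.0229), and its 4 withdrawal arrays lay close together. C1ra, a protease of the C1 complex, had a difference of -1.34 ± 0.40 and did not pass (adjusted p = 0.0668). Mbl1, a mannose-binding lectin, was at 4.19 and 3.69, at 1.86 and 1.79 in the tumours, and at 1.27 and 2.04 in inflamed FCR liver. It fell by 2.20 ± 0.42 (adjusted p = 0.0127). Mbl2, the other such lectin, was at 7.87 and 7.67, at 6.65 and 7.47 in the tumours, and at 7.98 and 8.11 in inflamed FCR liver. Its withdrawal arrays thus lay on both sides of the continuous ones, and its difference was -0.22 ± 0.40 (adjusted p = 0.797). The lectin pathway proteases Masp1 (-1.35 ± 0.57) and Masp2 (-0.92 ± 0.46) did not pass, with adjusted p of 0.176 and 0.252.

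Of the alternative route, Cfb and Cfd fell and C3 did not pass. Cfb, the protease of the alternative C3 convertase, was at 7.91 and 7.73, at 6.57 and 6.04 in the tumours, and at 6.09 and 6.60 in inflamed FCR liver, a fall of 1.50 ± 0.40 (adjusted p = 0.0421). C3, on which all routes meet, lay between 9.81 and 9.91 on continuous NTBC and between 8.78 and 9.23 after withdrawal, a difference of -0.87 ± 0.36 (adjusted p = 0.169). A second, dimmer C3 probe gave -0.20. Cfd, factor D or adipsin, is made mainly by fat cells. It was at 0.73 and -1.40 on continuous NTBC, at -4.36 and -6.32 in the tumours, where the second value was not well above background, and at -3.41 and -0.36 in inflamed FCR liver. It fell by 3.28 ± 0.89 over both strains (adjusted p = 0.0466), yet its groups overlapped, since the 2xoff/on inflamed array lay above normal FCR liver. Fat cell markers did not move one way. Of 6 listed, 5 were tested, 1 rose and 0 fell, with a median difference of 0.99 and 4 of the 5 above 0. Their summed level was 234 and 179 on continuous NTBC, 29.5 and 45.0 for the tumours, and 46.2 and 111 for inflamed FCR liver. On continuous NTBC nearly all of this sum came from 1 gene, Car3, so it does not stand for the list. Car3 was at 7.86 and 7.47 there, at 4.52 and 4.71 in the tumours, and at 1.70 and 6.20 in inflamed FCR liver. In healthy Fah liver 2 of the 6 were well above background. Adipoq, an adipokine well above background on 4 arrays, was lowest in the 2xoff/on tumour and highest in the 2xoff/on inflamed sample (-2.42). Its value in that tumour, -7.54, lay below the lowest signal well above background there (-6.20). Cidec, a lipid droplet protein, went from 0.91 and 0.88 on continuous NTBC to 2.69 and 4.24 in the tumours. The part of fat cells in the Cfd result was not tested. Among the regulators, Vtn, vitronectin, which blocks pore assembly, was at 8.84 and 8.58, at 7.25 and 6.62 in the tumours, and at 6.64 and 7.69 in inflamed FCR liver, and fell by 1.66 ± 0.44 (adjusted p = 0.0428). Cfi, which degrades C3b, and C4bp, its cofactor on C4b, had differences of -0.82 ± 0.41 and -1.23 ± 0.41 and did not pass.

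Of the vitamin K dependent members 4 of 6 fell. F7, the factor VII that meets tissue factor at a wound, was at 3.91 and 3.96 on continuous NTBC, at 1.89 and 0.92 in the tumours, and at 0.18 and 1.54 in inflamed FCR liver. It fell by 2.81 ± 0.53 (adjusted p = 0.011), the widest fall of these proteases. F2, prothrombin, was at 8.93 and 8.84, at 7.31 and 7.08 in the tumours, and at 7.18 and 7.58 in inflamed FCR liver, a fall of 1.60 ± 0.38 (adjusted p = 0.0267). F9, the factor missing in haemophilia B, was at 3.19 and 2.71, at 1.21 and 1.28 in the tumours, and at 1.08 and 1.93 in inflamed FCR liver, and fell by 1.58 ± 0.44 (adjusted p = 0.0495). Its call was lost in 9 of 13 alternatives, as those of Cfb and Vtn were in 8. Proc, the anticoagulant protein C, was at 7.49 and 7.58, at 5.57 and 5.22 in the tumours, and at 6.08 and 6.16 in inflamed FCR liver, and fell by 1.77 ± 0.38 (adjusted p = 0.018). F10, factor X, had a difference of -1.18 ± 0.38 (adjusted p = 0.0841). Pros1, protein S, the cofactor of protein C, which endothelial cells also make, lay between 1.76 and 2.84 on all 6 arrays and had a difference of -0.27 ± 0.41 (adjusted p = 0.744). A second, dimmer Pros1 probe, well above background on all 6 arrays, gave a difference of the other sign, 0.35.

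In the contact system Klkb1 and F12 fell. Klkb1, plasma prekallikrein, was at 3.50 and 3.26, at 0.53 and -0.21 in the tumours, and at -1.89 and 1.38 in inflamed FCR liver, a fall of 3.43 ± 0.80 (adjusted p = 0.0267). F12, factor XII, was at 6.20 and 6.40, at 4.83 and 4.79 in the tumours, and at 4.54 and 5.22 in inflamed FCR liver, a fall of 1.46 ± 0.40 (adjusted p = 0.0478) whose call was lost in 9 of 13 alternatives. F11 (-1.11 ± 0.39, adjusted p = 0.108) and the kininogen Kng1 (-0.71 ± 0.42, adjusted p = 0.334) did not pass. F5, the cofactor of factor X, was at 2.97 and 2.52, at 1.35 and 1.48 in the tumours, and at -2.63 and 1.28 in inflamed FCR liver. The off inflamed array was thus 3.91 below the 2xoff/on inflamed array, and F5 did not pass (-2.37 ± 0.90, adjusted p = 0.135). Tissue factor, F3, the cell surface protein that starts clotting, was at -2.29 and -0.94 on continuous NTBC, at -1.13 and -1.55 in the tumours, and at -2.22 and -2.22 in inflamed FCR liver. Its difference over both strains was -0.16 ± 0.47 (adjusted p = 0.876).

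Of the fibrinogen genes Fga fell, while Fgb and Fgg did not pass. The 3 genes encode the alpha, beta and gamma chains of fibrinogen and lie side by side, and their promoters are shown to set the chain that fell beside those that did not pass. Fga is on the plus strand at chr3:83025903-83026202, Fgb on the minus strand at chr3:83049814-83050113 and Fgg on the plus strand at chr3:83007474-83007773 (GRCm38.p6). Capitals mark the HNF1 and PU.1 letters given above and CTGGGAA, a response element of the acute-phase cytokine interleukin-6, each searched on both strands. CTGGGAA was in 7 of the 33 members with an entry and in 11.1% of all promoters, and no marked stretches overlap in these windows. The HNF1 letters are in Fga and Fgb and the interleukin-6 letters in Fgb and Fgg.

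Fga: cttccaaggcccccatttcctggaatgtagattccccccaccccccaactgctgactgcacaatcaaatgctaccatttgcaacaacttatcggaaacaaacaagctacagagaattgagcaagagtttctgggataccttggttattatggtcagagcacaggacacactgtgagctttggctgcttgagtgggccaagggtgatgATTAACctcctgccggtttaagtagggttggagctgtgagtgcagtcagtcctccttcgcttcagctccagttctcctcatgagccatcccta
Fgb: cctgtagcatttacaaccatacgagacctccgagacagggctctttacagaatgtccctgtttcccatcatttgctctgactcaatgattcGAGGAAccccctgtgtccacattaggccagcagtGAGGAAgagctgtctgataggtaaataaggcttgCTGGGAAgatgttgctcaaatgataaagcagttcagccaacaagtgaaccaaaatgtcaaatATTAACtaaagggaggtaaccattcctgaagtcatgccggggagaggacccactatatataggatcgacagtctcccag
Fgg: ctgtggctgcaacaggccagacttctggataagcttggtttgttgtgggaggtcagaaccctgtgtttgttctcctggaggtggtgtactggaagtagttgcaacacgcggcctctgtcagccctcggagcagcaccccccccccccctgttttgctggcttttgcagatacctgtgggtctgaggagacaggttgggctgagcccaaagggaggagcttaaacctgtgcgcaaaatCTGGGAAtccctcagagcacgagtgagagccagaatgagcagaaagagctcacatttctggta

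Fga was at 7.21 and 6.08 on continuous NTBC, at 5.73 and 4.70 in the tumours, and at 3.91 and 4.70 in inflamed FCR liver, and fell by 1.89 ± 0.46 (adjusted p = 0.0308). Healthy Fah liver was thus 1.13 above normal FCR liver, and the withdrawal arrays of each strain lay below its own continuous array. Fgb lay between 9.38 and 9.48 on continuous NTBC and between 8.56 and 8.98 after withdrawal, a difference of -0.71 ± 0.37 (adjusted p = 0.267). Fgg lay between 9.18 and 9.37 and between 8.06 and 8.61, a difference of -0.94 ± 0.38 (adjusted p = 0.161). F13b, the carrier subunit of the factor that crosslinks fibrin, was at 4.19 and 4.21, at 2.48 and 2.10 in the tumours, and at 2.82 and 2.80 in inflamed FCR liver. It fell by 1.65 ± 0.40 (adjusted p = 0.029), and the continuous and the withdrawal arrays each lay close together.

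Fibrinolysis held the widest rises. Plat, tissue plasminogen activator, which turns plasminogen into plasmin on fibrin, was at -2.60 and -2.63 on continuous NTBC, at 2.26 and 2.35 in the tumours, and at 3.17 and 1.71 in inflamed FCR liver. It rose by 4.99 ± 0.51 (adjusted p = 0.00106). Plaur, the receptor that holds urokinase on the cell surface, was at -3.07 and -2.80, at 0.39 and 0.68 in the tumours, and at 2.77 and 3.32 in inflamed FCR liver, and rose by 4.72 ± 0.44 (adjusted p = 0.000726). For Plaur the 2 inflamed arrays lay above both tumour arrays, while for Plat they lay on either side of them. The second probes gave 5.04 for Plat and 3.72 for Plaur. Plau, urokinase itself, was not well above background on either continuous array. It was well above background in both tumours, at -4.50 and -4.19, and in the off inflamed sample, at -3.35, but not in the 2xoff/on inflamed sample, at -6.00. Set against the lowest signal well above background on the continuous arrays, the mean of the withdrawal arrays was 1.74-fold higher. That mean includes the 2xoff/on inflamed value, so 1.74 is not a strict lower bound, and Plau did not pass (adjusted p = 0.0805). A second Plau probe was well above background on 1 array only. It was at -7.38 and -7.78 on continuous NTBC, at -8.82 and -5.45 in the tumours, and at -7.99 and -7.93 in inflamed FCR liver. Plg, the hepatocyte-made plasminogen on which both activators act, was at 7.31 and 7.16, at 5.57 and 5.78 in the tumours, and at 5.34 and 6.32 in inflamed FCR liver, a difference of -1.48 ± 0.42 (adjusted p = 0.0552). Cpb2, a carboxypeptidase that protects fibrin from plasmin, was at 6.67 and 7.02 on continuous NTBC, at 5.50 and 5.57 in the tumours, and at 7.90 and 7.57 in inflamed FCR liver. Its difference over both strains was -0.21 ± 0.37 (adjusted p = 0.789), and the withdrawal arrays of the strains lay on opposite sides of the continuous ones. A second Cpb2 probe showed the same order, at 5.67 and 6.18, then 4.56 and 4.42, then 7.48 and 6.32.

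**Figure D3:**
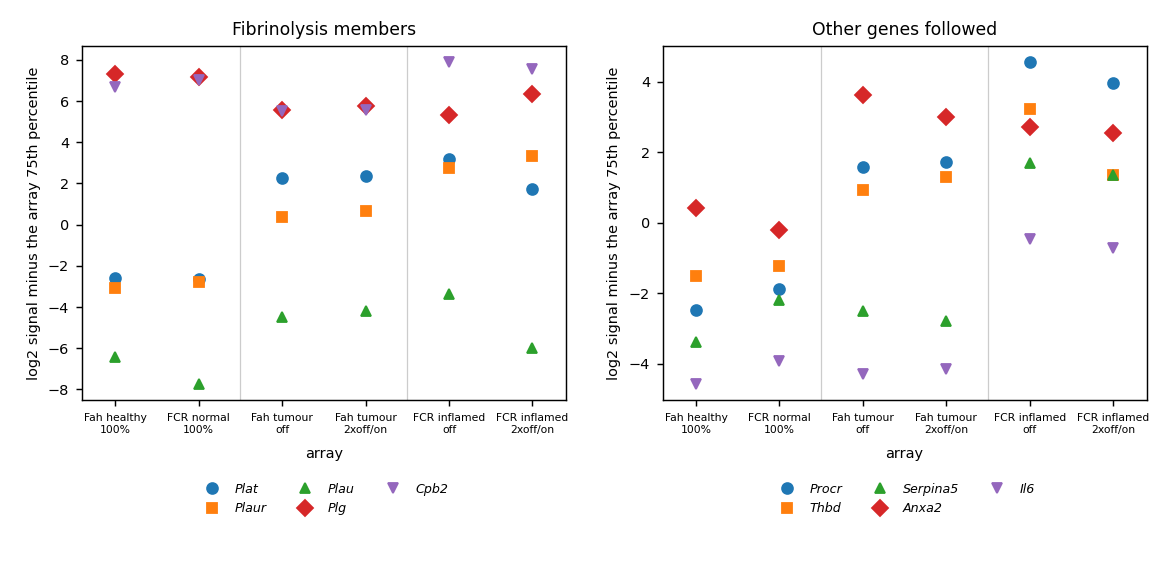
Log2 level of the 5 fibrinolysis members (left) and of 5 other genes of clotting and its regulation (right) on each of the 6 arrays, 1 point per gene and array. Plat and Plaur lie between -3.07 and -2.60 on continuous NTBC and between 0.39 and 3.32 after withdrawal; the continuous values of Plau and its value in the 2xoff/on inflamed sample are not well above background.

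Markers of liver cell types varied as well, in the test where 8.66% of all genes rose and 3.29% fell. Of 10 hepatocyte markers 8 were measured, all well above background on every array; 1 fell and 0 rose, with a median difference of -1.06. Their summed level was 3920 and 3670 on continuous NTBC, 1640 and 1680 for the tumours, and 2910 and 2230 for inflamed FCR liver. Albumin, Alb, was at 10.32 and 10.20, at 9.15 and 8.79 in the tumours, and at 9.97 and 9.10 in inflamed FCR liver. In units of the array's 75th percentile, the hepatocyte marker sum was thus lower on all 4 withdrawal arrays, most in the tumours. That percentile was also highest in the tumours, at 810.6 and 889.5, against 363.1 and 373.5 on continuous NTBC. Its part in this order was not tested. All 5 measured neutrophil markers rose, 4 of 5 monocyte markers and 4 of 7 stellate cell and fibroblast markers did, and 0 of 6 sinusoidal endothelial markers did. Of the others, 3 of 5 biliary and all 4 mast cell markers rose. The mast cell sum was high in the tumours only, at 5.55 and 33.3. It was 0.148 and 0.143 on continuous NTBC, and 0.253 and 0.367 for inflamed FCR liver. The part of these cell types in the falls and rises of the members was not tested.

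**Figure D4:**
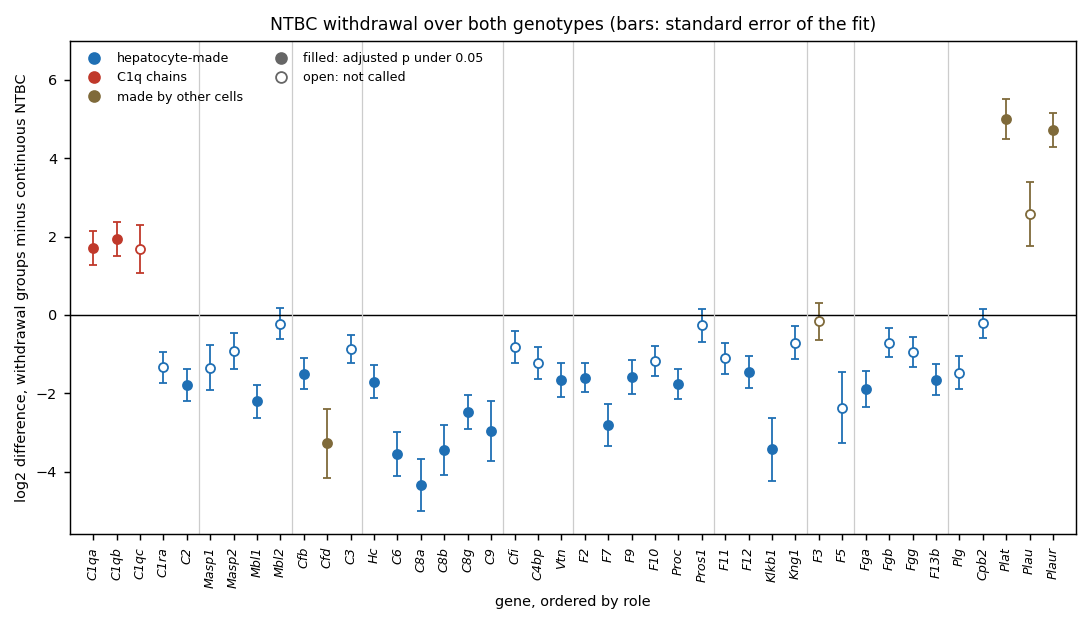
Log2 difference of the withdrawal groups from continuous NTBC over both genotypes for the 42 members tested, with the standard error of limma's fit as bars; filled points have an adjusted p under 0.05. The 19 falls include all 6 terminal complement genes, and the 4 rises are C1qa, C1qb, Plat and Plaur.

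Within Fah mice alone, the tumours (n = 2) were compared with healthy liver (n = 1), on the assumption that a group of 1 array has the spread seen between the paired arrays. Plat rose by 4.90 ± 0.73 (adjusted p = 0.00985) and Plaur by 3.60 ± 0.63 (adjusted p = 0.0164), 2 of 42 members where 3.92% of all genes rose. C6, C8a, C8g and Cfd fell, 4 of 42 members where 1.13% of all genes fell (5.05% changed either way). Cfd, well above background on 1 of the 2 tumour arrays, fell by 6.07 ± 1.26 (adjusted p = 0.0303), C8a by 4.66 ± 0.93 (adjusted p = 0.0263), C6 by 3.33 ± 0.79 (adjusted p = 0.0474) and C8g by 3.26 ± 0.60 (adjusted p = 0.0203). The median over the hepatocyte-made members was -1.58 and 33 of 34 were below 0, all but Pros1; with quantile normalization, as with the authors' values, 27 were below 0 and 6 above (C3, Fgb, Fgg, Kng1, Mbl2 and Pros1). C1qa, C1qb and C1qc had differences of 2.04 ± 0.60, 2.22 ± 0.61 and 1.84 ± 0.86 and did not pass. The counts depended on arrays that only lend their spread: without the off inflamed array (FCR inflamed replicate 1) 21 members fell and 5 rose, where 4.57% of all genes fell and 9.47% rose. When the 2xoff/on one was left out, 23 fell and 5 rose, where 5.26% of all genes fell and 10.3% rose. With slide as a block 12 fell and 6 rose (4.21% and 12.3% of all genes). Leaving out the 2xoff/on tumour array, 3 fell (C8a, C8g and Cfd) and 1 rose (Plat), where 0.676% of all genes fell and 2.68% rose.

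Within FCR mice, inflamed (n = 2) against normal liver (n = 1), Plaur rose by 5.84 ± 0.63 (adjusted p = 0.00491) and Plat by 5.07 ± 0.73 (adjusted p = 0.0142), 2 of 42 members where 1.55% of all genes rose. With limma 0 of 42 fell, where 0.202% of all genes fell, and 18 members were lower and 4 higher at an unadjusted p under 0.05, against 14.0% of all genes. The nearest were C6 (-3.74 ± 0.79, adjusted p = 0.0569), C8a (-4.03 ± 0.93, adjusted p = 0.0747) and F7 (-3.10 ± 0.74, adjusted p = 0.0834). The median over the hepatocyte-made members was -1.40, and 32 of 34 were below 0 in every setting tried, all but Mbl2 and Cpb2. The 2 inflamed samples differed in size: against normal liver the median was -1.69 in the off sample and -1.11 in the 2xoff/on sample. Leaving out the 2xoff/on inflamed array, 17 members fell and 5 rose, where 4.38% of all genes fell and 7.51% rose. Without the off one 1 fell and 2 rose (0.664% and 2.53% of all genes). Without the off tumour array 7 fell (0.723% of all genes), and without the 2xoff/on tumour array 6 did (0.702%). With slide as a block 9 fell and 4 rose (3.62% and 8.80% of all genes).

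The withdrawal responses of the strains were then set against each other. In limma's test of the difference 0 of 42 members passed, as did 0% of all genes, and 4 had an unadjusted p under 0.05 where 2.16% of all genes had one. These were Cfd (-5.58 ± 1.78, Fah response minus FCR response), Plaur (-2.24 ± 0.88), Cpb2 (-1.85 ± 0.75) and F3 (2.24 ± 0.94), each with an adjusted p of 1. Cfd passed with slide as a block (adjusted p = 5.97e-06, on 1 residual degree of freedom) and without the off tumour array (adjusted p = 0.0382). Mbl2, at -1.17 ± 0.80, was the remaining member whose tumour arrays both lay on one side of healthy liver and whose inflamed arrays both lay on the other side of normal liver. For Mbl2 and Cpb2 the tumours were the lower side, a pattern that 3.84% of all genes showed, and for F3 the higher, a pattern of 2.66% of all genes. The C1q chains had differences between 0.30 and 0.67, and the hepatocyte-made members a median of -0.29.

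**Figure D5:**
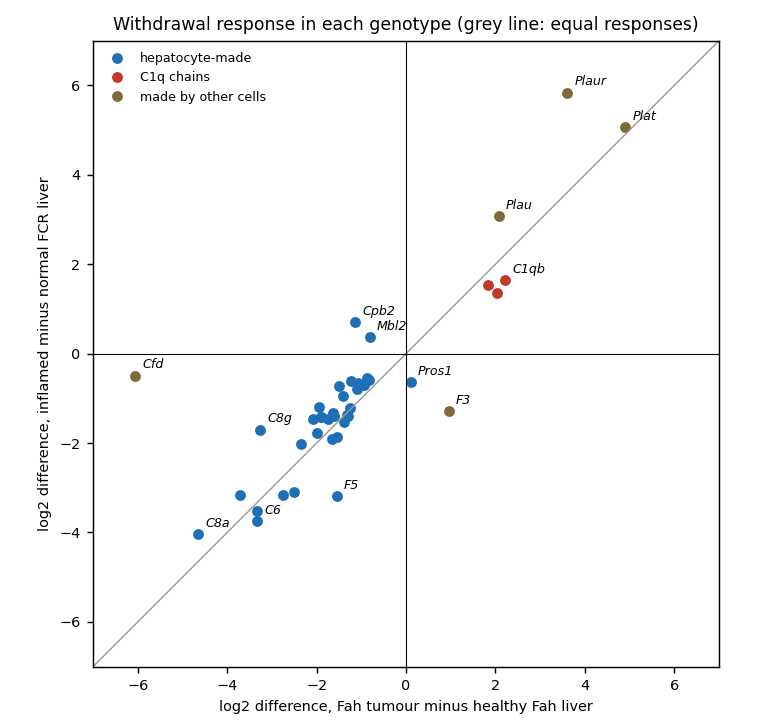
Log2 difference of Fah tumour from healthy Fah liver (x axis) against that of inflamed from normal FCR liver (y axis) for the 42 members, 1 point per gene. Most points lie near the line of equal responses; Mbl2 and Cpb2 lie left of and above 0, F3 lies right of and below 0, and Cfd lies at -6.07 on the x axis and -0.49 on the y axis.

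Fah tumour and inflamed FCR liver (2 arrays each) did not differ in any member past the threshold: 0 of 42 passed in limma's fit, where 0.0650% of all genes were higher and 0.143% lower (0.208% in all). At an unadjusted p under 0.05 there were 5, against 9.19% of all genes. Those 5, all lower in tumour, were Cfd (-3.46 ± 1.03), Plaur (-2.51 ± 0.51), Cpb2 (-2.20 ± 0.43), C8g (-1.15 ± 0.49) and F11 (-1.05 ± 0.45). Cpb2 was lower in tumour by the same order within each slide, at -2.40 among the off and -2.00 among the 2xoff/on samples, and so was Plaur, at -2.38 and -2.64. With slide as a block Cfd, Plaur and Cpb2 were lower and F5 higher (adjusted p = 0.00429 for Cpb2 and 9.5e-05 for Plaur), where 2.99% of all genes were lower and 3.41% higher. For terminal complement the sign differed between the slides in 5 of 6 members: tumour minus inflamed was 1.29 on slide 1 and -2.19 on slide 2 for C8a, and 1.44 and -1.69 for C8b. C8g was lower in tumour on both, at -0.68 and -1.61. Leaving out 1 array changed these calls. Without the 2xoff/on inflamed array C9, Klkb1 and F5 were higher and Cpb2 and Plaur lower in tumour (2.32% and 2.94% of all genes), and Cfd was lower without the off inflamed or without the off tumour array.

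With regimen as a term over all 6 arrays, Fah and FCR liver differed in 0 of 42 members, where 0.130% of all genes were higher in Fah and 0.163% lower (0.293% in all). At an unadjusted p under 0.05 there were 5, against 11.7% of all genes: Plaur (-1.76 ± 0.47), Cpb2 (-1.58 ± 0.46) and F11 (-0.79 ± 0.31) on the lower side in Fah, and Fga (0.98 ± 0.40) and F5 (1.54 ± 0.66) on the higher. C6 and F5 passed without the 2xoff/on tumour array, both higher in Fah, with adjusted p of 0.0311 and 0.000156, and again without the 2xoff/on inflamed array; 0.983% and 1.01% of all genes were then higher in Fah. On continuous NTBC each strain had 1 array, and the difference was not tested. The hepatocyte-made members differed by a median of 0.13. Of 42 members, Cfd (2.12), Fga (1.13) and Plau, which was not well above background on either array, were higher in Fah by more than 1, as were 3.02% of all genes, and F3 (-1.36) was lower by more than 1, as were 5.28%. The C1q chains differed by 0.01 to 0.14.

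Between the off and the 2xoff/on regimens, over both strains, limma found 0 of 42 members past the threshold, where 0.104% of all genes were higher and 0.689% lower in off; F5 (-2.02 ± 0.81) and C9 (-1.72 ± 0.61) had an unadjusted p under 0.05, as did 17.2% of all genes. Without the 2xoff/on tumour array 5 members were lower in off (Cfd, C8b, C9, Klkb1 and F5) and C1qc was higher, where 2.29% of all genes were lower and 1.89% higher. Within inflamed FCR liver 11 of 42 members were lower in off by more than 1, where 16.6% of all genes were, led by F5 (-3.91), Klkb1 (-3.27), C9 (-3.15), Cfd (-3.05) and C8b (-2.31). C1qc (2.26), Plat (1.46) and Plau were higher by more than 1, as were 19.9% of all genes; Plau was not well above background in the 2xoff/on sample and was at least 4.93-fold higher in off. Within tumour 1 member, Masp2 (-1.14), was lower and 4, among them C8a (2.30), were higher by more than 1, where 12.5% and 6.20% of all genes were. Cfd, one of the 4, was not well above background in the 2xoff/on tumour and was at least 3.58-fold higher in off. The off inflamed sample, in which F5, Klkb1 and C9 were lowest of all 6, is the array with the widest probe gaps, whose part in these values was not tested.

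The comparison that the series' design text names sets both tumours against normal FCR liver and the 2xoff/on inflamed sample. With limma on these 4 arrays 0 of 42 members passed, as did 0% of 15171 genes, and 13 members had an unadjusted p under 0.05 where 11.5% of all genes had one. The 10 lower in tumour were led by Cfd (-4.46 ± 0.85, with 1 of 2 tumour arrays well above background), C8b (-2.28 ± 0.74) and C8g (-2.24 ± 0.50), and the 3 higher were C1qc (1.71 ± 0.36), C1qa (1.68 ± 0.46) and Plau, which neither FCR array showed well above background and which was at least 2.35-fold higher. The FCR side joins a continuous and a withdrawal sample, and the values split accordingly: Plaur was at -2.80 and 3.32 in them, against 0.39 and 0.68 in the tumours. Without the 2xoff/on inflamed sample 22 members were lower and 6 higher in tumour, where 5.23% of all genes were lower and 9.96% higher. With both inflamed samples in place of these FCR arrays the median of the hepatocyte-made members was -0.15, against -1.06 with the named arrays.

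Other genes of the same pathways were counted from lists of 29 complement, 31 coagulation and 15 regulatory genes. Of 27 further complement genes tested after withdrawal, 4 rose and 4 fell, where 8.66% of all genes rose and 3.29% fell. The complement receptor integrins Itgax (3.62 ± 0.57, adjusted p = 0.00551), Itgam (2.37 ± 0.56) and Itgb2 (2.03 ± 0.45) rose, as did Cd93, once described as a C1q receptor (1.98 ± 0.47). Cfhr2 fell by 1.70 ± 0.38 (adjusted p = 0.0228) and the protease gene C1rl by 2.32 ± 0.63 (adjusted p = 0.0478). The integrins are known from myeloid cells.

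Of 30 further coagulation genes 6 rose and 1 fell, where 8.66% of all genes rose and 3.29% fell. The share that fell was thus near that of all genes. Procr, the endothelial receptor that presents protein C for activation, was at -2.48 and -1.88 on continuous NTBC, at 1.59 and 1.74 in the tumours, and at 4.57 and 3.97 in inflamed FCR liver, and rose by 5.15 ± 0.43 (adjusted p = 0.000434). Thbd, thrombomodulin, its partner in that step, rose by 3.08 ± 0.57 (adjusted p = 0.0107). Anxa2, a cell surface receptor for Plat and plasminogen, rose by 2.86 ± 0.42 (adjusted p = 0.00409), F13a1, the catalytic subunit carried by F13b, by 2.58 ± 0.71 (adjusted p = 0.0474), and Serpina5, an inhibitor of activated protein C, by 2.23 ± 0.46 (adjusted p = 0.0162). Serpina5 was at -3.39 and -2.18, at -2.49 and -2.78 in the tumours, and at 1.69 and 1.37 in inflamed FCR liver, so that the tumours lay between the continuous samples, and it was lower in tumour than in inflamed liver by -4.17 ± 0.53 (adjusted p = 0.0296). Hrg, the hepatocyte-made histidine-rich glycoprotein that binds plasminogen, fell by 1.75 ± 0.39 (adjusted p = 0.0212).

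Among 14 regulators tested, Cebpa, a transcription factor of the mature hepatocyte, was at 4.96 and 5.10 on continuous NTBC, at 3.37 and 2.21 in the tumours, and at 1.71 and 3.27 in inflamed FCR liver, and fell by 2.39 ± 0.56 (adjusted p = 0.026). Hnf4a, another such factor, had a difference of -1.19 ± 0.41 and did not pass (adjusted p = 0.0971). Il6, the cytokine that drives acute-phase genes, was at -4.58 and -3.92, at -4.29 and -4.15 in the tumours, and at -0.47 and -0.71 in inflamed FCR liver. It rose by 1.85 ± 0.51 over both strains (adjusted p = 0.0479), though the tumours lay within the range of the continuous samples. Tumour minus inflamed was -3.63 ± 0.59 for Il6 and did not pass (adjusted p = 0.0604).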

How the data were processed

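Total RNA of 6 mouse liver and tumour samples was hybridised to 1-colour Agilent arrays. The spot intensities were deposited as scanner output, made with Feature Extraction 10.7.3.1 per the file headers (the submitters' processing notes name 10.5), with background already subtracted in the processed signal. The authors also deposited a table of log2 values, whose array medians lie between 6.455 and 6.479 and which correlate with the log2 processed signal at 0.9592 to 0.9836 across probes; how they were scaled and centred stays unknown. Probes were named through RefSeq accessions (26904 named, 14241 unnamed) and 1 probe was kept per gene, the one of highest mean. No spot was saturated, and outlier spots were dropped. The test was limma's (version 3.58.1, under R 4.3.3) on the 15377 genes that 2 or more arrays showed well above background (moderated with a trend, 4 group means, Benjamini-Hochberg over all genes, threshold 0.05), with 2 residual degrees of freedom; the number of arrays limits the precision. Fah against FCR and off against 2xoff/on came from an additive fit of genotype and regimen. The scripts were tested on simulated data. Values on all arrays are given for members that passed in any comparison and for C1q; of other pathway genes that passed most are named, with Hnf4a added after its values were seen. Members and lists were chosen with earlier results of these data known. Alternatives changed the background correction, scaling, dim-probe filter, probe rule, variance trend, used slide or regimen as a block, and left out each withdrawal array in turn (normal FCR liver in the comparison of the design text only). Promoters came from RefSeq (GRCm38.p6), while the array design names mm9. Some genes of the other pathway lists enter the counts but are not reported here by name.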

Additional observations from a re-analysis of the deposited data

Results flagged for a closer look

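For 3 members both withdrawal arrays of Fah mice moved to one side of their continuous array and both of FCR mice to the other. The Fah response minus the FCR response was -1.17 for Mbl2, the mannose-binding lectin, and -1.85 for Cpb2, the carboxypeptidase that protects fibrin; both were lower in tumour than in healthy Fah liver and higher in inflamed than in normal FCR liver, a pattern of 3.84% of all genes. It was 2.24 for F3, tissue factor, in the opposite sense, a pattern of 2.66% of all genes. In limma's test of the difference each had an adjusted p of 1.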

How the results depend on the processing

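After withdrawal over both genotypes, 19 members fell and 4 rose. The falls numbered 6 with quantile normalization (1.79% of all genes) and with the authors' values (1.69%). They numbered 11 with no filter on dim probes (2.34%), 10 with every probe on its own (1.63% of probes) and 9 without a variance trend (2.42%). With the array median as the scale 2 rose, where 5.99% of all genes did. The share of all genes called also moved with the setting in the comparisons that follow. In the Fah comparison (4 fell, 2 rose) 10 fell and 4 rose with normexp, 0 fell with quantile normalization, 2 fell with no filter and with probes above background on all arrays, 1 fell with every probe on its own, 0 fell and 1 rose with the authors' values, and 12 fell and 6 rose with slide as a block. In the FCR comparison (0 fell, 2 rose) 6 fell with normexp, 1 fell with the array median, 1 rose with the authors' values, and 9 fell and 4 rose with slide as a block. Slide as a block gave 1 lower member in the difference of the responses and 3 lower and 1 higher in tumour against inflamed liver. Normexp gave 3 lower in tumour against inflamed liver, 2 lower in Fah against FCR and 1 lower in off against 2xoff/on. Leaving out 1 array at a time gave 10 to 28 falls and 2 to 6 rises after withdrawal, 3 to 23 and 1 to 5 in Fah, 1 to 17 and 2 to 5 in FCR, 0 to 1 lower in the difference of responses, 0 to 2 lower and 0 to 3 higher in tumour against inflamed liver, 0 to 2 higher in Fah against FCR, 0 to 5 lower and 0 to 1 higher in off against 2xoff/on, and 0 to 22 lower and 0 to 6 higher in the comparison of the design text. In that comparison the Plaur difference of 0.27 turned to -2.79 without normal FCR liver (FCR normal replicate 1), and was 3.33 without the 2xoff/on inflamed array. The causes were not tested, except that leaving out an array changes which samples enter. The labels number no replicates; regimen as a block gave 0 members that differed between tumour and inflamed liver, where 0.130% of all genes were higher and 0.163% lower. Continuous NTBC has 1 array per strain, so its own spread was not measured, and with 2 residual degrees of freedom a member that did not pass is not shown to be equal. With the array median as the scale the median of all genes moved to -0.33.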
